A study of Mus musculus with 4 samples.

Results

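Myc, Jun, Junb, Jund, Fos, Fosl1, Egr1, Ier2, Klf6 and Klf4 were taken as a group of immediate early transcription factor genes. They are described here in ribosome footprint counts from mouse lung epithelial cells. Not every member fits that label equally, as Jund is expressed steadily in many resting cells. The 10 genes were taken by their Ensembl IDs from the 53465 gene IDs of the deposited count table, and their symbols come from the list of IDs chosen for study. Ribosome profiling sequences the RNA stretches that ribosomes shield from nuclease, so a count reflects the amount of an mRNA and how densely ribosomes occupy it. No total RNA libraries were analysed here, so a change in mRNA and a change in translation cannot be told apart for any gene below.

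The cells were MLE-12, an established line made from a lung tumour of a mouse carrying the SV40 large T antigen, and a common stand-in for alveolar type 2 cells. The control group (replicates 1 and 2) had no 1-nitropyrene, and whether a vehicle was added is not stated. The other group (replicates 2 and 3) was given 1-nitropyrene, a nitrated polycyclic compound of diesel exhaust, at 5 µM for 12 h. Every library shares the line and a cold wash with cycloheximide, an inhibitor of translation elongation. The labels do not say whether the libraries of a group are separate cultures. The p-values therefore cover only the spread between these libraries, which may be technical. In the main test below, a gene's spread was taken from a trend over all genes and not from its own libraries. Alveolar type 2 markers were not examined, because the table's IDs could not be paired with symbols beyond the genes named here.

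Immediate early genes are transcribed soon after a stimulus such as serum, a growth factor or stress, without need for new protein synthesis. Signals through MAP kinases reach factors already bound at their promoters, and the mRNAs that follow are usually short-lived because of destabilising elements at their ends. Jun and Fos proteins pair into the dimer AP-1, Myc pairs with Max, and the zinc finger proteins Egr1, Klf4 and Klf6 bind GC-rich DNA. The series concerns FBXW7, a ubiquitin ligase receptor whose known substrates include the MYC and JUN proteins. Footprints report on the synthesis of those proteins and not on their degradation.

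Among the 10 genes, footprints of Egr1 fell after 1-nitropyrene, to 51.6% of the control level, and it was the only member to pass the main test over all genes, though not the DESeq2 Wald test. Myc and Jun stood at 77.8% and 75.4% of control, differences that did not pass after adjustment. The groups of Jun, Junb, Fosl1 and Klf6 overlapped. Jund and Klf4 were scarce, and Fos and Ier2 were too scarce to be tested. Of the 8 members tested, 0 rose, 1 fell and 7 did not pass (edgeR quasi-likelihood test, threshold 0.05 on the p-value after Benjamini-Hochberg adjustment over 7719 genes). All libraries are from 12 h, so a rise that had passed by then would not be seen. Across all genes tested 17.3% passed in either direction, 9.68% higher and 7.58% lower, so 1 of 8 is no excess over the background. At an unadjusted p under 0.05, 0 members were higher and 3 were lower, namely Egr1, Myc and Jun, beside 15.8% and 14.1% of all genes tested. After adjustment limma-voom also called 0 members higher, as did the DESeq2 Wald test among the 4 members to which its own filter left an adjusted p and among all 8 without that filter.

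The libraries held 1136145 to 1357034 counts. The 2 gene IDs with the most counts took 29.7% of them in either control library. After 1-nitropyrene they took 32.9% and 33.0%, which leaves a smaller part of the total for other genes. Levels are given as CPM, counts scaled to a library of 1e6 with TMM, a method that assumes most genes do not change. In that unit 1 count was worth 0.761 to 0.860 CPM, and 0 counts leave room for a true level of 3 counts, which is 2.28 to 2.58 CPM. Such limits, and the Poisson intervals below, cover counting error only. The 10 genes together held 711 and 687 counts in control and 504 and 603 after 1-nitropyrene, or 541 and 580 against 434 and 478 CPM. For the 8 tested members the log2 fold changes had a median of -0.39, beside -0.01 for all genes tested. Without control replicate 2 the members' median was -0.24, and without 1-nitropyrene replicate 2 it was -0.26. With total counts in place of TMM the medians of members and all genes were -0.55 and -0.17. Below 0 lay 7 of the 8 members, against 50.8% of all genes tested, and all 8 with total counts, against 64% of all genes.

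Short stretches of 4 promoters are shown because they carry a searched motif, either a general core promoter element or a sequence that a member binds. RefSeq (GRCm38.p6, the build that mm10 denotes) gave a promoter, 250 bases before to 50 after the gene start, for 6 of the 10 genes: Jun, Junb, Jund, Fos, Klf6 and Klf4. Capitals mark TATAAA, the letters of a TATA box, in Fos (chr12:85473830-85473889, plus strand) and Junb (chr8:84978743-84978802, minus strand). In Klf6 (chr13:5861419-5861478, plus strand) they mark CACGTG, the E-box that Myc and Max bind. In Klf4 (chr4:55532621-55532680, minus strand) they mark CACGTG and, on the opposite strand, GCGGGGGCG, a site for Egr1.
Fos: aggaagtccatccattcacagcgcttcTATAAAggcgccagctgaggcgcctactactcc
Junb: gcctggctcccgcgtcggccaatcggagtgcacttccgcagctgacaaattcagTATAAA
Klf6: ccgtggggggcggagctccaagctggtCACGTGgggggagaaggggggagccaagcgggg
Klf4: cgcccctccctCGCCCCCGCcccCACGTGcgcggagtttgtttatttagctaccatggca

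The search covered either strand of the whole window. TATAAA was present in 2 of the 6 promoters, against 13.6% of the 32851 promoters in the table. It began 33 bases before the annotated start in Fos, and in Junb at the annotated start itself. A TATA box lies before the start that is used, and which start these cells use at Junb was not examined. The CArG box bound by serum response factor was in 0 of the 6 and 1.63% of all promoters. TGACGTCA, the cyclic AMP response element, was in 0 and 1.79%, and TGANTCA, the AP-1 site, in 0 and 7.81%. CACGTG was in 2 of the 6 and 7.15% of all promoters, and GCGGGGGCG in 1 of the 6 and 2.91%. These last 2 motifs were added after the results were seen, and CACGTG and GCGGGGGCG do not overlap in Klf4. A match is a run of letters and not a measured binding site. Sites outside the window, or with letters other than those searched, would be missed. A count of 0 therefore does not show that a gene lacks such an element.

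Egr1 encodes a zinc finger factor that is among the fastest genes to respond to MAP kinase signals, and lies at chr18:34861207-34864956 (ENSMUSG00000038418). It had 86 and 78 counts in control and 40 and 42 after 1-nitropyrene. As levels these were 65.4 and 65.8 CPM in control and 34.4 and 33.3 CPM after 1-nitropyrene. The replicates of either group lay close together and the groups did not overlap. Groups that did not overlap, with the lower level after 1-nitropyrene, were found for 28.7% of all genes tested, and in either direction for 57.3%.

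The group means of Egr1 were 65.6 ± 0.279 and 33.8 ± 0.815 CPM (SD, n = 2 each). Its log2 fold change was -0.95 ± 0.24 SE (95% interval -1.43 to -0.48, edgeR quasi-likelihood adjusted p = 0.0013). Of all genes tested, 5.60% had a log2 fold change as low or lower. Egr1 had a mean count of 61.5, and of the genes that reached 50, 27.6% were called in either direction and 10.1% lower. Counting error alone is wide at this depth: the 40 counts of 1-nitropyrene replicate 2 have a 95% Poisson interval of 28.6 to 54.5. Without any single library the log2 fold change of Egr1 lay between -0.96 and -0.93 and its adjusted p between 0.0172 and 0.0394. The DESeq2 Wald test on the same 7719 genes gave Egr1 a log2 fold change of -0.95 with an adjusted p = 0.0865, which ends the call.

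Myc encodes the bHLH zipper factor that drives growth and ribosome production, and lies at chr15:61985341-61990361 (ENSMUSG00000022346). It had 159 and 147 counts in control and 105 and 126 after 1-nitropyrene, or 121 and 124 against 90.4 and 99.8 CPM. Each control library was above each 1-nitropyrene library. The means were 122 ± 2.18 and 95.1 ± 6.68 CPM (SD, n = 2 each). The log2 fold change of -0.36 ± 0.16 SE (95% interval -0.68 to -0.05) had an unadjusted p of 0.0241 and an adjusted p = 0.102 in the edgeR quasi-likelihood test. Of all genes tested, 24.8% were as low or lower. Scaled to total counts the log2 fold change of Myc was -0.53 and passed (edgeR adjusted p = 0.0097), a scaling that lowers the median gene to -0.17 and calls 14.4% of all genes lower.

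**Figure D1:**
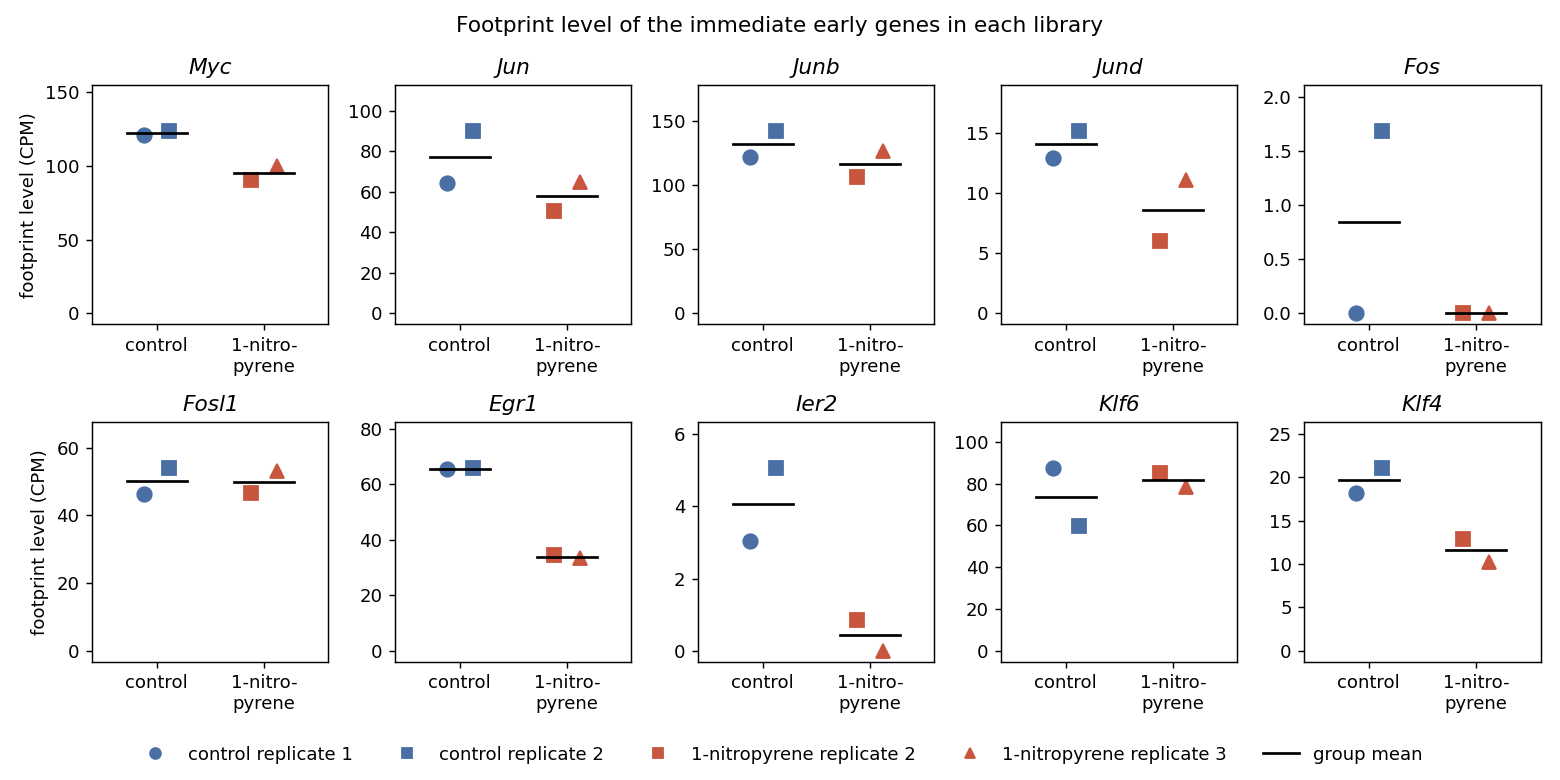
Footprint level (CPM, vertical axes starting just under 0, each with its own range) of the 10 genes in the 2 control and 2 1-nitropyrene libraries; a symbol is a library and a line the mean of a group. Egr1 sits at 65.4 and 65.8 CPM in control and 34.4 and 33.3 CPM after 1-nitropyrene, while the groups of Jun, Junb, Fosl1 and Klf6 overlap.

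The AP-1 subunits were next taken by family. Jun (ENSMUSG00000052684, chr4:95049036-95052222), Junb (ENSMUSG00000052837, chr8:84976909-84978748) and Jund (ENSMUSG00000071076, chr8:70697739-70700616) encode the subunits that can pair with each other or with a Fos protein. Jun, the main activating subunit, had 85 and 107 counts in control and 59 and 82 after 1-nitropyrene, or 64.6 and 90.3 against 50.8 and 65.0 CPM. Its lower control library and its higher 1-nitropyrene library were nearly level, so the groups overlapped. The log2 fold change of Jun was -0.41 ± 0.20 SE (edgeR unadjusted p = 0.0463, adjusted p = 0.159). It ran from -0.64 without control replicate 1 to -0.15 without control replicate 2, and was -0.23 without 1-nitropyrene replicate 2. With total counts it was -0.57 and passed (edgeR adjusted p = 0.0326).

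Junb, often described as a weaker activator that can oppose Jun, had the most counts of the 10 genes. Its counts were 160 and 169 in control and 124 and 160 after 1-nitropyrene, or 122 and 143 against 107 and 127 CPM. The groups overlapped, and the log2 fold change was -0.17 (95% interval -0.47 to 0.12, edgeR adjusted p = 0.465). It was -0.29 and -0.05 without control replicates 1 and 2, and -0.04 and -0.30 without 1-nitropyrene replicates 2 and 3. The interval of the ratio, 0.724 to 1.09, leaves out a fall of 2-fold or more.

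Jund, the subunit expressed most steadily in many resting cells, had 17 and 18 counts in control and 7 and 14 after 1-nitropyrene, or 12.9 and 15.2 against 6.02 and 11.1 CPM. The groups did not overlap, yet the 1-nitropyrene libraries differed from each other by 0.88 on the log2 scale. The log2 fold change was -0.69 with a 95% interval of -1.66 to 0.27 (edgeR adjusted p = 0.35). It was -1.20 without 1-nitropyrene replicate 3 and -0.32 without 1-nitropyrene replicate 2. At this depth a 2-fold fall and no change were both within the interval.

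Jun, Junb, Jund and Ier2 each lie in a single exon, so their levels could be compared per kb of RefSeq gene, untranslated ends included. In control cells Junb stood at 66.1 and 77.5 CPM per kb, Jun at 20.3 and 28.3, Jund at 4.49 and 5.28, and Ier2 at 2.0 and 3.33. The 1-nitropyrene libraries gave 58.0 and 68.9 for Junb, 15.9 and 20.4 for Jun, 2.09 and 3.85 for Jund, and 0.565 and 0 for Ier2. Junb, Jun and Jund were separate from each other within either group. The order of Jund and Ier2 was not settled at this depth, as their counting intervals overlap. As footprints fall mainly on the coding part, whose lengths were not used, this order is approximate.

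Of the Fos subunits, which pair with Jun proteins in AP-1, Fosl1 was measured and Fos was at the limit of detection. Fos (ENSMUSG00000021250, chr12:85473890-85477274) had 0 and 2 counts in control and 0 and 0 after 1-nitropyrene. With both groups at or under the limit that 0 counts allows, no fold is given. Fosl1 (ENSMUSG00000024912, chr19:5447698-5455938), which encodes Fra-1, a subunit common in proliferating epithelial lines, had 61 and 64 counts in control and 54 and 67 after 1-nitropyrene. These were 46.4 and 54.0 against 46.5 and 53.1 CPM, nearly the same pair of values in either group. The log2 fold change was -0.01 ± 0.24 SE (95% interval -0.47 to 0.46, edgeR adjusted p = 0.992). Its sign turned with the filter and with single libraries left out. RefSeq places the protein-coding gene Ccdc85b across one end of Fosl1, and how reads in the shared stretch were counted is not given in the sources used here.

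The make-up of the AP-1 counts was compared as shares within a library, which do not depend on scaling. The 5 subunits together had 323 and 360 counts in control and 244 and 323 after 1-nitropyrene. Jun made up 26.3% and 29.7% of them in control and 24.2% and 25.4% after 1-nitropyrene. Jund made up 5.26% and 5.00% against 2.87% and 4.33%. Fosl1 made up 18.9% and 17.8% against 22.1% and 20.7%. For Jun, Jund and Fosl1 the groups did not overlap, with differences of -3.24, -1.53 and 3.11 percentage points. No background was computed for shares, but in CPM the groups did not overlap for 57.3% of all genes tested. The shares of a library sum to a fixed total, so a share can rise while the gene's own level does not. The mean level of Fosl1 was 50.2 CPM in control and 49.8 CPM after 1-nitropyrene. Single libraries moved the values of Jun and Jund: the Jun difference was -1.53 without control replicate 2 and -4.94 without control replicate 1, and the Jund difference was -0.797 without 1-nitropyrene replicate 2. An exact two-sided permutation test gave p = 0.333 for each of Jun, Jund and Fosl1, the smallest that 2 libraries against 2 allow. Junb held 49.5% and 46.9% against 50.8% and 49.5%, and its groups met (exact permutation p = 0.667). Its difference of 1.94 percentage points was 0.642 without control replicate 2, 1.30 without 1-nitropyrene replicate 2 and 3.23 without control replicate 1. The share of Fos was 0% and 0.556% against 0% and 0% (exact permutation p = 1).

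**Figure D2:**
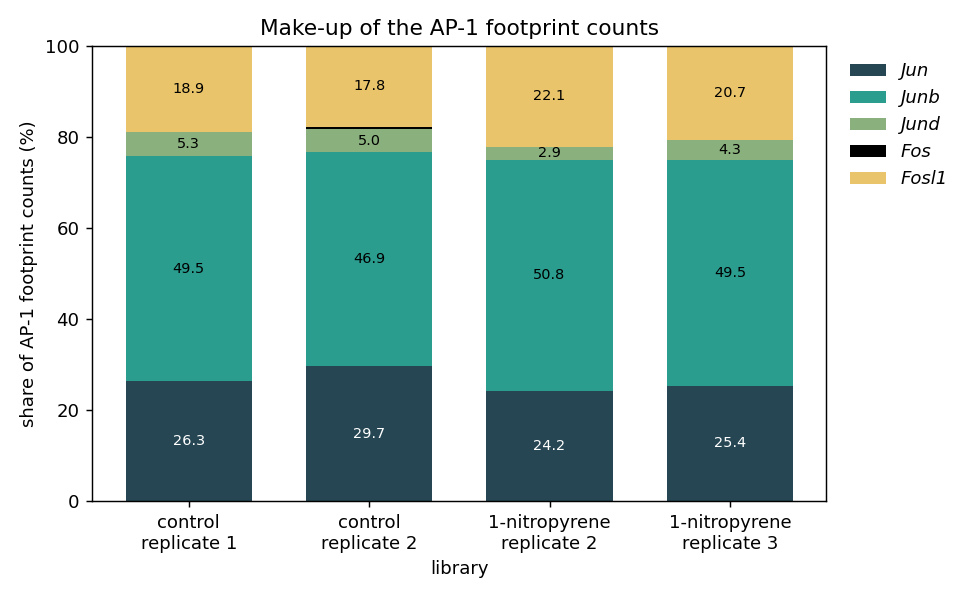
Share (%, vertical axis) of each of the 5 AP-1 subunit genes in the summed AP-1 footprint counts of each of the 4 libraries (bars). Junb makes up 46.9% to 50.8% in every library, and the Fosl1 share is 17.8% and 18.9% in control against 20.7% and 22.1% after 1-nitropyrene. Shares sum to a fixed total, and the mean level of Fosl1 was 50.2 CPM in control and 49.8 CPM after 1-nitropyrene.

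Klf6 and Klf4 encode Krüppel-like zinc finger factors. Klf6 (ENSMUSG00000000078, chr13:5861489-5870393), known as a growth-restraining factor induced by injury, had 115 and 71 counts in control and 99 and 99 after 1-nitropyrene. These were 87.5 and 59.9 against 85.2 and 78.4 CPM, so both 1-nitropyrene libraries lay between the controls. The controls differed by 0.55 on the log2 scale, and their 95% Poisson intervals, 72.2 to 105 and 46.8 to 75.6 CPM, met only at their ends. The log2 fold change was 0.14 (95% interval -0.23 to 0.51, edgeR adjusted p = 0.675). It was -0.02 with total counts, 0.45 without control replicate 1 and -0.09 without control replicate 2.

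Klf4 (ENSMUSG00000003032, chr4:55527137-55532475), a factor of epithelial differentiation and of pluripotency, had 24 and 25 counts in control and 15 and 13 after 1-nitropyrene. These were 18.3 and 21.1 against 12.9 and 10.3 CPM, and the groups did not overlap. The log2 fold change was -0.76 ± 0.42 SE (95% interval -1.58 to 0.06, edgeR adjusted p = 0.209), and 9.61% of all genes tested were as low or lower.

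Ier2 (ENSMUSG00000053560, chr8:84661331-84662852), a nuclear protein of the early growth response, had 4 and 6 counts in control and 1 and 0 after 1-nitropyrene. It did not pass the filter on low counts and was not tested. Pooled over a group, 10 counts stood against 1, or 4.00 CPM in control against 0.412 CPM after 1-nitropyrene. The 1-nitropyrene value is under the 1.24 CPM that 0 pooled counts would allow, so no fold is given. After scaling, the ratio of 1-nitropyrene to control had an exact 95% counting interval of 0.0024 to 0.725. This interval compares the pooled libraries and does not hold the spread between libraries of a group.

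**Figure D3:**
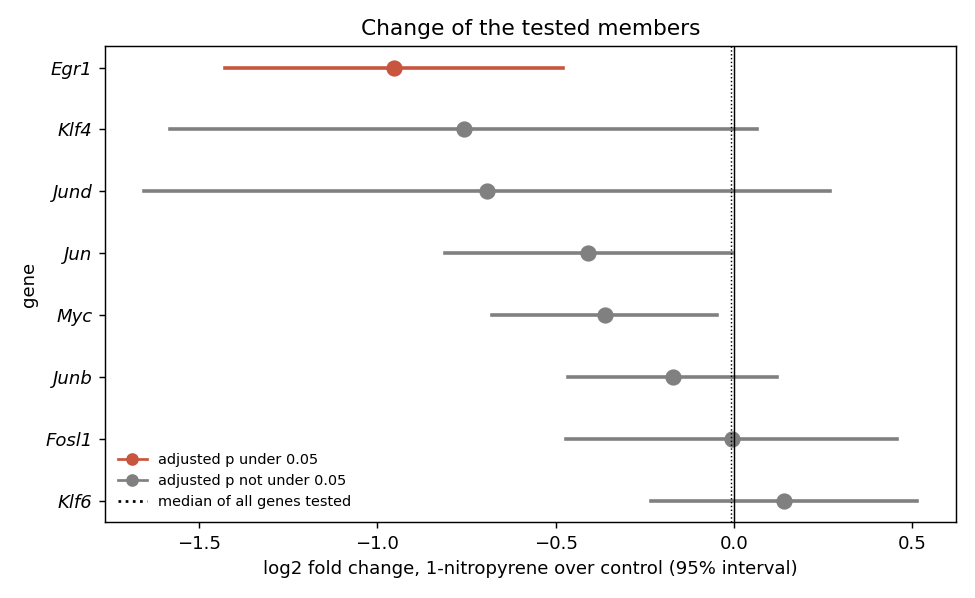
Log2 fold change of 1-nitropyrene over control (horizontal axis) for the 8 tested genes, points with 95% intervals from the edgeR fit; the dotted line is the median of all genes tested, -0.01. Egr1 is at -0.95 with an interval of -1.43 to -0.48 and is the only member that passed, while the intervals of Klf4 and Jund span 0.

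How the members differed from one another was read from ratios within a library. Among the 28 pairs of tested members, 18 had groups that did not overlap, and the ratio of Egr1 to Klf6 changed most. Egr1 had the lowest fold change of the tested members in the same counts, so its ratios are not separate evidence of its fall. The log2 ratio of Egr1 to Klf6 counts was -0.42 and 0.14 in control and -1.31 and -1.24 after 1-nitropyrene. That of Myc to Egr1 was 0.89 and 0.91 in control and 1.39 and 1.58 after 1-nitropyrene. That of Fosl1 to Egr1 was -0.50 and -0.29 against 0.43 and 0.67, so the order of their counts turned. Against 5 of the other 7 tested members (Myc, Jun, Junb, Fosl1 and Klf6) Egr1 was relatively lower after 1-nitropyrene with groups that did not overlap. The same held against 82.6% of the other genes tested that had a count in every library. Against Klf4 and Jund the groups overlapped: the log2 ratio of Egr1 to Klf4 was 1.84 and 1.64 in control and 1.42 and 1.69 after 1-nitropyrene. Myc and Jun kept a similar ratio, 0.90 and 0.46 on the log2 scale in control and 0.83 and 0.62 after 1-nitropyrene.

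The likeness of patterns was measured as the distance between 4 log2 CPM values per gene, each centred on the gene's mean. Egr1 and Klf4 were each other's nearest member, at a distance of 0.306, and Junb and Fosl1 were nearest at 0.173. Junb was also the nearest member to Myc (0.243) and to Jun (0.303). Klf6 was the member farthest from its nearest neighbour, at 0.613 from Fosl1. Over 4 libraries these distances are a description and say nothing of shared control.

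**Figure D4:**
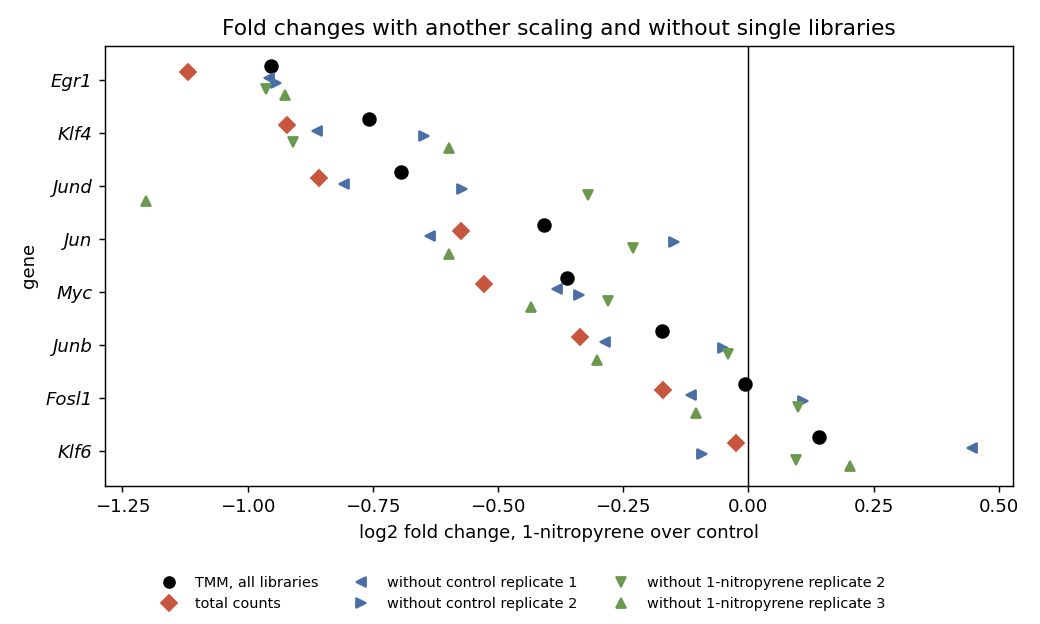
Log2 fold change of 1-nitropyrene over control (horizontal axis) of the 8 tested genes with TMM scaling, with total counts, and with each library left out. Total counts move every gene to the left, Egr1 from -0.95 to -1.12, and the values of Fosl1 and Klf6 fall on either side of 0.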

How the data were processed

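The deposited table holds raw counts of ribosome-protected fragments per Ensembl mouse gene for 4 libraries, not normalized by the authors as far as the values show, and 0 other sample columns. Per the submitters' processing notes cutadapt, Bowtie, HISAT2, featureCounts and DESeq2 were used with build mm10; versions, annotation, fragment lengths and strand setting were not given in the sources used here. Genes were filtered with filterByExpr (minimum count 10, minimum total 15), which left 7719 genes with 98.6% of the counts, scaled with TMM and tested with edgeR's quasi-likelihood test with no covariates (R 4.3.3, edgeR 4.0.16). The prior degrees of freedom were infinite, so each gene took its spread from the trend. Standard errors come from the fold change and F. Alternatives were DESeq2 1.42.0, limma-voom (limma 3.58.1), other scalings and filters, and leaving out each library. In simulated counts of 7719 genes, edgeR recovered 93% of 200 genes changed 2-fold at mean counts of 50 or more. Of its calls there, 4.62% were false. The simulated counts were drawn with the trend of spread fitted to these data, with no further difference in spread between genes. The 4.62% therefore cannot show how many calls in the real counts are false. Jund and Klf4, with mean counts of 14 and 19.25, lay under the range of the changed genes.

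The members, lists and tests were chosen with earlier results of these data known. All 10 members are named, by rule. Symbols were paired with IDs only in the members' list: RefSeq's gene table gave an Ensembl ID for 0 of 49997 genes, so 10 lists of pathway and marker genes were not run. Levels per coding length were not run, as no protein lengths were used. All 10 symbols matched RefSeq for coordinates.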

Additional observations from a re-analysis of the deposited data

How the results depend on the processing

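Egr1 kept its direction in all 11 alternatives that gave it an adjusted p and its call in 10, with log2 fold changes from -1.12 to -0.93; the exception was the DESeq2 Wald test on the genes edgeR tested (-0.95, adjusted p = 0.0865), which called 0 members lower. With its own filter on low counts DESeq2 gave Egr1 no adjusted p. Total counts called 3 members lower, adding Myc (-0.53, adjusted p = 0.0097) and Jun (-0.57, adjusted p = 0.0326) in edgeR, and turned Klf6 to -0.024. That scaling moves the median gene from -0.01 to -0.17. Fosl1 turned to 0.0098 with no filter. Leaving out each library gave log2 fold changes of -0.12 to 0.11 for Fosl1 and -0.092 to 0.45 for Klf6, which turned without control replicate 2, as Fosl1 did, and Fosl1 also without 1-nitropyrene replicate 2 (0.10). Myc, Jun, Junb, Jund and Klf4 kept their direction under every alternative run. With the Jun subunits as the denominator, the difference in the Junb share was 4.61 percentage points in place of 1.94. Over all genes, 1332 were called, 747 higher and 585 lower. Total counts called 406 higher and 1110 lower. The DESeq2 Wald test called 318, of which 239 were higher and 79 lower. Run on edgeR's genes it called 345, with 243 higher and 102 lower. With each library left out, where the remaining sample of its group is taken to have the other group's spread, there were 572 to 834 calls, 382 to 480 higher and 190 to 354 lower. The cause of these shifts was not tested. No paired analysis was possible because only number 2 occurs in both groups. AP-1 shares per coding length were not run. Depth limits Fos, Ier2, Jund and Klf4, which had 2, 11, 56 and 77 counts over all libraries.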
